A study of Mus musculus with 6 samples.

Results

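Receptors that let phagocytes sense formylated peptides, complement fragments and lipid mediators were examined in macrophages with and without Tet2. They are the formyl peptide receptors Fpr1 and Fpr2, the anaphylatoxin receptors C3ar1, C5ar1 and C5ar2, the lipid mediator receptors Ptafr and Ltb4r1, and the chemerin receptor Cmklr1. The 8 genes were listed by family, except that Fpr2 was chosen on its higher level in Tet2-/- cells in these same arrays, so its difference is given as a description with no test. Of the 8 genes, 7 had a named probe set among the 25206 of the table, and Fpr1 was not analysed here because the annotation used pairs no probe set with it. The other 6 receptors were tested.

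The cells were peritoneal macrophages of C57BL/6J mice, either Tet2-/- or wild-type littermates, and both groups were treated alike. Each mouse received 1 mL of aged 4% Brewer's thioglycollate, an irritant that draws leukocytes into the peritoneal cavity, 4 days before the cells were taken. The cells were plated without a stimulus and RNA was taken after 10 h. Each genotype had 3 arrays, numbered replicates 4, 5 and 6. Neither the age of the mice nor the design of the Tet2 deletion is given in the sources used here, and separate animals are not stated outright, so p-values cover only the spread among the arrays at hand. Cells from the cavity can be a mixture, and in bulk RNA fewer cells of a type and less RNA per cell cannot be told apart.

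The genotype in the sample title was contradicted by the genotype characteristic for 4 of the 6 samples. Groups follow the title, so Tet2-/- and wild-type mean arrays labelled so there. The targeted gene Tet2 was at 4.35, 3.74 and 3.79 in wild-type replicates 4, 5 and 6 and at 3.80, 4.05 and 3.67 in Tet2-/-, with overlapping groups. Its difference was -0.12 by title (limma adjusted p = 0.998) and -0.08 by the characteristic, so Tet2 did not tell which label holds. Whether its probe set lies in the deleted part of the gene is not given in the sources used here. Array medians lay between 2.77 and 2.93 on the log2 scale. Tet2-/- replicate 6 stood apart, with the highest median, the narrowest interquartile range (2.99 against 3.16 to 3.33) and the lowest mean correlation with the other arrays (0.982). General macrophage genes were high in all 6 arrays: 8 of 9 measured markers, Adgre1, Csf1r, Cd68, Mertk, Fcgr1, Itgam, Cd14 and Mrc1, lay above the median of every array, and the exception was the scavenger receptor Cd163.

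All of these receptors cross the membrane repeatedly and, except for C5ar2, signal through G proteins. Ligand binding releases G protein subunits that activate phospholipase C, phosphoinositide 3-kinase and the Rac GTPases, which drive directed movement, granule release and the oxidative burst. Kinases and arrestins then switch the receptor off. C5ar2 binds C5a without G protein coupling and is known as a modulating receptor. In inflamed tissue, formyl peptides from bacteria and mitochondria and the complement fragment C5a are classical end-point attractants, whereas leukotriene B4 relays the signal between cells.

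Because Tet2 oxidises methylated cytosine, which in mammals lies mostly in CpG dinucleotides, the CpG content before each gene is shown. Methylation itself was not measured. In the 250 bases upstream of the annotated start, Fpr2 had 0 CpG, C5ar1 and C5ar2 had 2 each, Ltb4r1 had 3, and C3ar1, Ptafr and Cmklr1 had 5 each. All 7 lay below the median of 6 over the 27025 genes with a promoter sequence, whose quartiles were 2 and 16. A promoter with no CpG, as for Fpr2, was found for 8.26% of those genes. Promoters with 5 or fewer, as for C3ar1, Ptafr and Cmklr1, were found for 49.5%, so these 3 lay near the middle. The first promoter entry of each gene was used. The stretches printed here are shown because Fpr2 carries the difference that chose it, Cmklr1 has the widest difference among the tested receptors, and C3ar1 has the narrowest one, and the CpG dinucleotides are in capitals. They are from RefSeq on GRCm38.p6, given 5′ to 3′ on the strand of the gene, at chr17:17887574-17887823 (plus strand) for Fpr2, chr5:113643604-113643853 (minus strand) for Cmklr1 and chr6:122856158-122856407 (minus strand) for C3ar1.
Fpr2: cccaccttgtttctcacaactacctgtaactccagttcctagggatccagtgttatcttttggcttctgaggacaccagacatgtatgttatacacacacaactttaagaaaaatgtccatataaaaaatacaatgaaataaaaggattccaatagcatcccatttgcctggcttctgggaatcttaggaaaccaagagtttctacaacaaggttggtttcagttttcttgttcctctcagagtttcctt
Cmklr1: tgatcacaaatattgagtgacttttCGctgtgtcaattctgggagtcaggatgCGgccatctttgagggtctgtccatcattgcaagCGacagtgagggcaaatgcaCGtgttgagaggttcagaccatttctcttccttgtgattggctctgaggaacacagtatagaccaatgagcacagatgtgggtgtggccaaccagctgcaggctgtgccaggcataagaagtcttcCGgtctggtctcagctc
C3ar1: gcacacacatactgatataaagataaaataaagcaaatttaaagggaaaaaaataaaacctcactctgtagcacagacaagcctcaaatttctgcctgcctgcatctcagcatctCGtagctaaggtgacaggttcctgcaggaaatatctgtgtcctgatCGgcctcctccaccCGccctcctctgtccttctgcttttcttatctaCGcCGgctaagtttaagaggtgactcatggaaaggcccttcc

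Fpr2 was the only receptor whose groups did not overlap. In mice it binds formylated peptides, serum amyloid A and annexin A1, and so takes both activating and resolving ligands. Its log2 level was 2.60, 1.63 and 2.20 in wild-type replicates 4, 5 and 6, and 3.75, 3.32 and 2.81 in the Tet2-/- replicates of the same numbers. Every Tet2-/- array thus lay above every wild-type array, with Tet2-/- replicate 6 only slightly above wild-type replicate 4. The means were 2.14 ± 0.487 (SD, n = 3) and 3.29 ± 0.471 (SD, n = 3), a difference of 1.15 or 2.22-fold. It ranged from 0.893 without wild-type replicate 5 to 1.39 without Tet2-/- replicate 6. With groups taken from the genotype characteristic it was -0.67, so its direction rests on the titles. Levels were low throughout: only Tet2-/- replicates 4 and 5 exceeded the median of their own array. RMA compresses differences near background, and the background level of this probe set was not measured.

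Complete separation of the groups, in either direction, was found for 7.41% of all 25206 probe sets, and nothing is read from this share for Fpr2, which was chosen on that contrast. None of the 6 tested receptors was separated. By limma's moderated test 0 of the 6 receptors and 0 of all probe sets (0%) passed an adjusted p of 0.05. At an unadjusted p under 0.05 the counts were 0 of 6 receptors and 910 of all probe sets (3.61%). Among the 6 tested receptors the mean was higher in Tet2-/- for C3ar1, C5ar1, Ltb4r1 and Cmklr1 and lower for C5ar2 and Ptafr. Of all probe sets 49.2% had a higher mean in Tet2-/-. Fpr2 is left out here, since its choice fixed its direction.

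**Figure D1:**
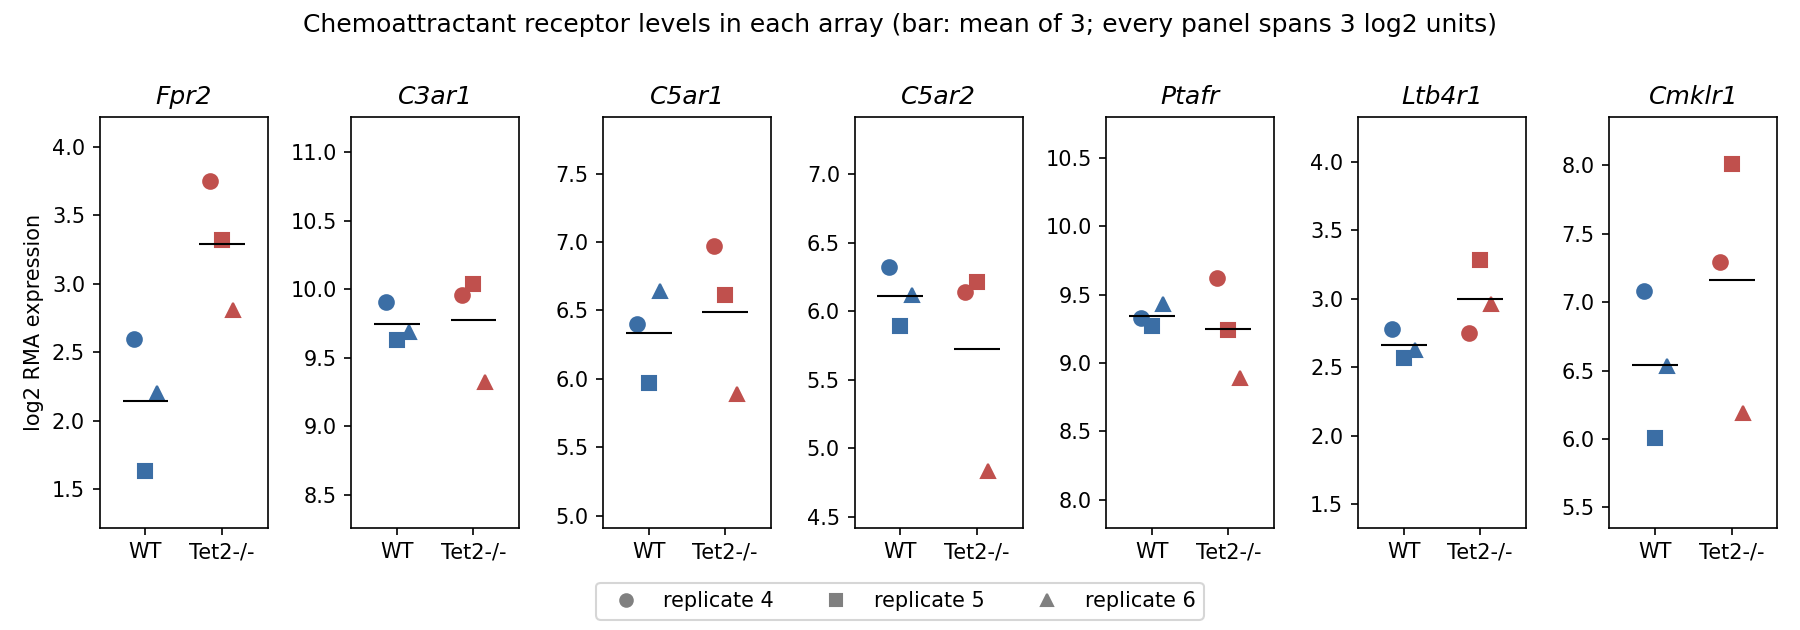
Log2 RMA expression of the 7 measured receptors in each array, wild-type (WT) on the left and Tet2-/- on the right of each panel, with the replicate number as symbol and the group mean as a bar. Fpr2 is the only panel without overlap, and the triangle of Tet2-/- replicate 6 is the lowest point of the panels of C3ar1, C5ar1, C5ar2 and Ptafr.

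The anaphylatoxin receptors were not called, and each was lowest in Tet2-/- replicate 6. C3ar1, the receptor of the complement fragment C3a, was at 9.91, 9.63 and 9.69 in wild-type replicates 4, 5 and 6 and at 9.96, 10.04 and 9.32 in Tet2-/-. Its 2 highest arrays and its lowest array were all Tet2-/-. The difference was 0.03 (standard error 0.202, 95% confidence limits -0.43 and 0.49, limma adjusted p = 0.998), which in fold terms is 1.02 with limits of 0.744 and 1.40. It was 0.257 without Tet2-/- replicate 6. Its sign turned when Tet2-/- replicate 4, Tet2-/- replicate 5 or wild-type replicate 5 was left out, down to -0.10.

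C5ar1, the receptor through which C5a attracts and activates phagocytes, was at 6.40, 5.97 and 6.64 in wild-type and at 6.97, 6.61 and 5.89 in Tet2-/- cells. Tet2-/- minus wild-type was 0.15, with 95% confidence limits of -0.47 and 0.78 (limma adjusted p = 0.998). Leaving out Tet2-/- replicate 4 or wild-type replicate 5 turned the sign, to -0.09 and -0.03. Leaving out Tet2-/- replicate 6 gave 0.453.

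C5ar2, the C5a receptor without G protein coupling, was at 6.32, 5.89 and 6.12 in wild-type and at 6.14, 6.21 and 4.83 in Tet2-/-. Tet2-/- replicates 4 and 5 lay within the wild-type range, and replicate 6 lay over 1 log2 unit below every other array. The difference of -0.38, with 95% confidence limits of -1.14 and 0.37 (limma adjusted p = 0.998), was 0.065 without that array. C5ar1 and C5ar2, which are near neighbours on chromosome 7, thus differed by 0.15 and -0.38, and this contrast between them was not tested.

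The lipid mediator receptors gave small differences. Ptafr, the receptor of platelet-activating factor, was at 9.33, 9.27 and 9.43 in wild-type and at 9.62, 9.24 and 8.89 in Tet2-/-. Its wild-type arrays differed by little (SD 0.0808), whereas the Tet2-/- arrays spread to both sides of them (SD 0.365). Tet2-/- minus wild-type was -0.09, with 95% confidence limits of -0.52 and 0.33 (limma adjusted p = 0.998), or 0.937-fold with limits of 0.699 and 1.26, and it was 0.087 without Tet2-/- replicate 6.

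Ltb4r1, the high-affinity receptor of leukotriene B4, was at 2.78, 2.57 and 2.63 in wild-type and at 2.75, 3.28 and 2.96 in Tet2-/-. Tet2-/- replicates 5 and 6 lay above all wild-type arrays and replicate 4 lay among them. The difference of 0.34 (standard error 0.163, 95% confidence limits -0.03 and 0.71, limma adjusted p = 0.998) lay between 0.195 and 0.46 when single arrays were left out, and it was 0.195 without Tet2-/- replicate 5. Like Fpr2 it was dim, above the array median in 3 of the 6 arrays.

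Cmklr1, the receptor of chemerin, had the widest difference among the tested receptors and the widest spread. It was at 7.08, 6.01 and 6.53 in wild-type and at 7.29, 8.01 and 6.19 in Tet2-/-. Tet2-/- replicates 4 and 5 were the 2 highest arrays, while replicate 6 lay among the wild-type values. The difference was 0.62 (standard error 0.428, 95% confidence limits -0.35 and 1.59, limma adjusted p = 0.998), 1.54-fold with limits of 0.787 and 3.02. Leaving out Tet2-/- replicate 6 gave 1.11 (limma adjusted p = 0.326). Leaving out Tet2-/- replicate 5 or wild-type replicate 5 gave 0.20 and 0.358.

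**Figure D2:**
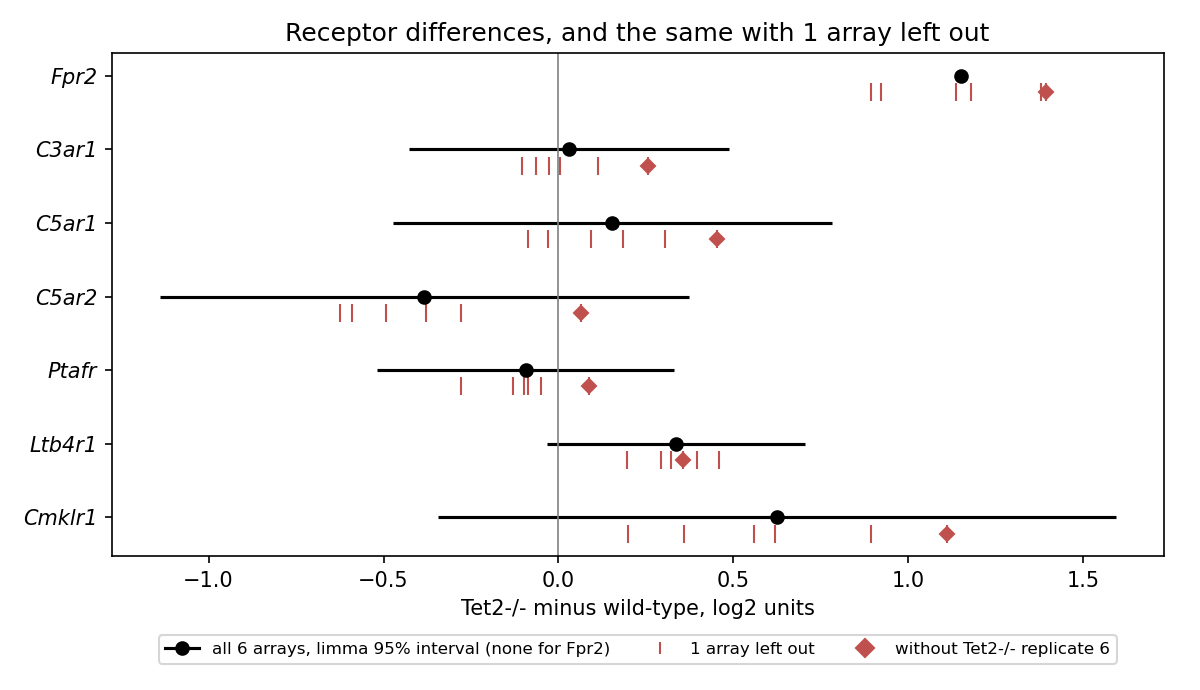
Difference of the group means (Tet2-/- minus wild-type, log2 units) for each receptor, with limma's 95% confidence interval for the 6 tested ones, and below it the difference after leaving out each array in turn. The diamond marks the value without Tet2-/- replicate 6, which is the highest of the 6 such values for every receptor except Ltb4r1, and every interval spans 0.

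Most receptors, like most of all probe sets, varied more among the Tet2-/- arrays than among the wild-type arrays. The SD was larger in Tet2-/- than in wild-type for 6 of the 7 receptors, the exception being Fpr2, and for 63.7% of all probe sets. Tet2-/- replicate 6 was the lowest of all 6 arrays for 4 of the 7 (C3ar1, C5ar1, C5ar2 and Ptafr), as it was for 20.5% of all probe sets and 32.9% of the brighter ones, those with a mean above the median probe set. Without that array, 2 of the 6 tested receptors, C3ar1 and Cmklr1, had both remaining Tet2-/- arrays above every wild-type array. This held for 11.1% of all probe sets, and 25.7% were separated in either direction. Without Tet2-/- replicate 4, Ltb4r1 was separated upward and Ptafr downward, against 15.8% of all probe sets separated in either direction. Without wild-type replicate 4, Ltb4r1 was separated upward, against 7.24% of all probe sets upward and 16.7% in either direction. Leaving out any of the other 3 arrays separated 0 of the 6.

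Marker genes of other cells of the cavity also varied across these arrays. Set against their 6-array mean, 10 resident peritoneal macrophage genes, all above the array medians, averaged 0.60, 0.86 and -0.45 in Tet2-/- replicates 4, 5 and 6 and -0.12, -0.50 and -0.39 in wild-type. The 6 measured monocyte genes averaged 0.45, 1.12 and -0.16 in Tet2-/- and -0.23, -0.54 and -0.64 in wild-type, with the chemokine receptor Ccr2 at a difference of 1.38 (limma adjusted p = 0.665) and the leukocyte gene Plac8 at 1.77 (limma adjusted p = 0.998). Plac8 was at 3.81, 6.43 and 3.94 in Tet2-/- replicates 4, 5 and 6, so replicate 5 weighs most in its difference. All 6 monocyte genes had a higher mean in Tet2-/-, and 4 lay above and 1 below the median of every array. Of the 10 resident macrophage genes, 8 were higher in Tet2-/- and 2 lower, Cd9 (-0.16) and Garnl3 (-0.11). Among them only Cd5l was separated, at a difference of 0.74 (limma adjusted p = 0.998). Over all probe sets 7.41% were separated in either direction. Of 9 B-cell genes, 7 were higher and 2 lower in Tet2-/-, and 3 lay above and 3 below the median of every array. The list averaged 0.31, 0.87 and -0.32 in Tet2-/- against -0.38, -0.31 and -0.16 in wild-type. The B-cell receptor chain Cd79b differed by 1.55 and the inhibitory receptor Cd22 by -0.80, each separated (limma adjusted p = 0.998 and 0.483). Among the general macrophage markers the mannose receptor Mrc1 was separated, at -0.59 (limma adjusted p = 0.998). The part of these cells in the receptor values was not tested.

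Neutrophils are the classical carriers of formyl peptide and leukotriene B4 receptors, and Fpr2 had an r of 0.180 with the mean of their marker genes over the 6 arrays. Of 14 neutrophil genes, 8 were higher and 6 lower in Tet2-/- (median difference 0.067), and the mean level of the list was 3.06 to 3.12 in wild-type and 3.10 to 3.25 in Tet2-/- arrays. Of the 14, 4 lay above the median of every array: the calcium-binding protein gene S100a8 (5.79 to 7.19), the growth factor receptor gene Csf3r (6.16 to 6.98) and the metalloproteinase genes Mmp8 (5.26 to 6.63) and Mmp9 (3.48 to 4.10). Another 9 lay below the median of every array, among them Ly6g, Elane, Ltf, Retnlg, Cxcr2 and the granule peptide gene Camp. The granule enzyme gene Mpo, which was also below every array median, had non-overlapping groups (difference 0.46, limma adjusted p = 0.998). Mmp9 was separated in the other direction, lower in Tet2-/- (difference -0.30, limma adjusted p = 0.998). The list mean was highest in Tet2-/- replicate 6, which also had the highest median of the 6 arrays. Of the brighter genes, S100a8 was highest in that array (7.19), Mmp8 (5.26) and Csf3r (6.16) were lowest in it, and Mmp9 lay between. The part of neutrophils in the Fpr2 values was not tested. The 10 eosinophil and mast cell genes averaged within 0.07 of their mean in every array, and 7 of them lay below the median of every array. Siglecf, a lectin of eosinophils and some macrophages, was separated and 1.21 lower in Tet2-/- (limma adjusted p = 0.879). Another 3 were separated upward, Il5ra (0.27), Mcpt4 (0.21) and Tpsb2 (0.30), with a limma adjusted p of 0.998 for each. Upward separation was found for 3.33% of all probe sets, and separation in either direction for 7.41%. Il5ra and Mcpt4 lay below the median of every array, and nothing is read from these small differences.

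**Figure D3:**
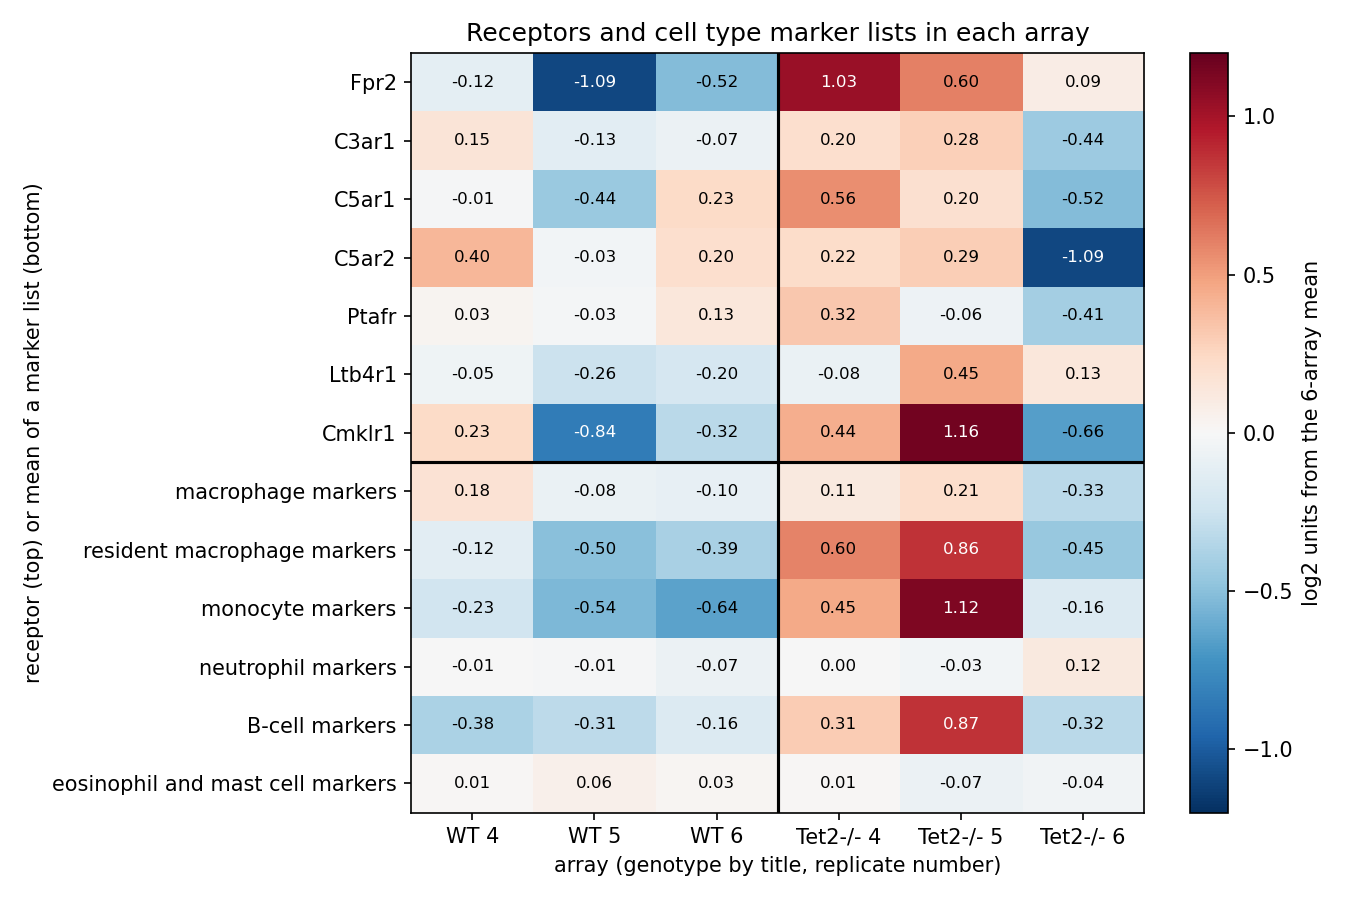
Deviation of each receptor (top) and of the mean of each cell type marker list (bottom) from its 6-array mean, in log2 units, with wild-type (WT) arrays left of the line and Tet2-/- arrays right of it. C3ar1, Ltb4r1, Cmklr1 and the general macrophage, resident macrophage, monocyte and B-cell lists are highest in Tet2-/- replicate 5. The neutrophil list stays within 0.12 of its mean.

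The probe sets most like Fpr2 over the 6 arrays were sought by Pearson's r among 6770 named, brighter and variable probe sets. Since all values come from the same 6 arrays and Fpr2 differs between the genotypes, likeness includes that difference. The highest values were for the forkhead factor Foxn3 (0.978), the mRNA-binding protein gene Zfp36l1 (0.977), Spats2 (0.974), the fractalkine receptor Cx3cr1 (0.970) and Fam126b (0.968), and 57 probe sets reached 0.9. Cx3cr1 was at 5.85, 4.97 and 5.32 in wild-type replicates 4, 5 and 6 and at 6.96, 6.79 and 5.72 in Tet2-/-, so it shared with Fpr2 the order of all 6 arrays but for one place, Tet2-/- replicate 6 standing below wild-type replicate 4. The lowest values were for Anapc15 (-0.990), a subunit of the anaphase-promoting complex, Gm16062 (-0.978) and Srek1ip1 (-0.964).

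Among the receptors themselves, C3ar1 ran with C5ar2 (r = 0.889 over the 6 arrays), Cmklr1 (0.865) and C5ar1 (0.784). Fpr2 ran most with Cmklr1 (0.748) and hardly with C5ar2 (0.087), and Ltb4r1 ran against Ptafr (-0.401). With 6 shared arrays these are descriptions.

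Closely related receptors were mostly dim. Of 10 measured relatives, 5 were higher and 5 lower in Tet2-/- (median difference -0.02 against 0 over all probe sets), and 0 passed the adjusted threshold. The formyl peptide receptor paralogues Fpr-rs3, Fpr-rs4, Fpr-rs6 and Fpr-rs7, known in mice mainly as vomeronasal receptors, lay below the median of every array. Fpr-rs3 was at 1.54, 1.36 and 1.55 in wild-type and at 1.15, 1.32 and 1.05 in Tet2-/-, so its groups were separated in the direction opposite to Fpr2 (difference -0.31, limma adjusted p = 0.998). Cysltr1, a receptor of cysteinyl leukotrienes, was the other separated relative, at 5.26, 4.69 and 4.84 in wild-type and at 5.57, 5.92 and 5.32 in Tet2-/- (difference 0.67, standard error 0.202, limma adjusted p = 0.998). Ccrl2, a non-signalling receptor that presents chemerin to Cmklr1, differed by -0.31.

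Genes that make or supply the ligands were mixed. Of 16 measured, 9 were higher and 7 lower (median difference 0.047), with 0 past the adjusted threshold. For Fpr2, Saa3, a serum amyloid A, differed by 0.24 and Anxa1, which encodes annexin A1, by -0.35. For Ltb4r1, Alox5, the lipoxygenase that starts leukotriene synthesis, was at 5.37, 4.82 and 4.10 in wild-type and at 5.99, 6.53 and 4.96 in Tet2-/- (difference 1.06, limma adjusted p = 0.998), while its partner Alox5ap differed by 0.063 and Lta4h, which makes leukotriene B4, by -0.13.

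For Ptafr, Lpcat2, an enzyme that makes platelet-activating factor, was at 7.15, 6.67 and 6.51 in wild-type and at 7.53, 8.16 and 7.0 in Tet2-/- (difference 0.79, limma adjusted p = 0.998). Pla2g7, which degrades that lipid, differed by -0.20. Cfb, the complement protease component whose pathway yields C3a and C5a, was at 4.05, 3.94 and 3.78 in wild-type and 4.52, 5.60 and 4.31 in Tet2-/- and was separated (difference 0.89, limma adjusted p = 0.998). Rarres2, which encodes chemerin, differed by 0.16, and Hc, which encodes C5, lay below the median of every array.

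Genes downstream of the receptors differed little. Of 19 measured G protein signalling genes, 13 were higher and 6 lower (median difference 0.033), and 0 had an unadjusted p under 0.05. Among them only Gng2 was separated, lower in Tet2-/- (difference -0.18, limma adjusted p = 0.998). The inhibitory G protein subunit Gnai2 differed by 0.033, Plcb2, a phospholipase C, by 0.24, Pik3cg, the G protein-activated phosphoinositide 3-kinase, by 0.07 and the GTPase Rac2 by 0.0033. The 4 measured NADPH oxidase subunits, which make the oxidative burst, split evenly, with Cybb at 0.13 and Cyba at -0.28. Of 12 genes that switch receptors off, 9 were higher and 3 lower (median difference 0.165). Grk6 and Rgs14 were separated upward, against 3.33% of all probe sets upward and 7.41% in either direction. The receptor kinase Grk6 was at 5.55, 5.48 and 5.56 in wild-type and 5.73, 6.01 and 5.89 in Tet2-/- (difference 0.35, limma adjusted p = 0.998). Rgs14 differed by 0.27 (limma adjusted p = 0.998), and Rgs1, a G protein inhibitor, by -0.49. In these lists too, 0 genes passed the adjusted threshold.

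**Figure D4:**
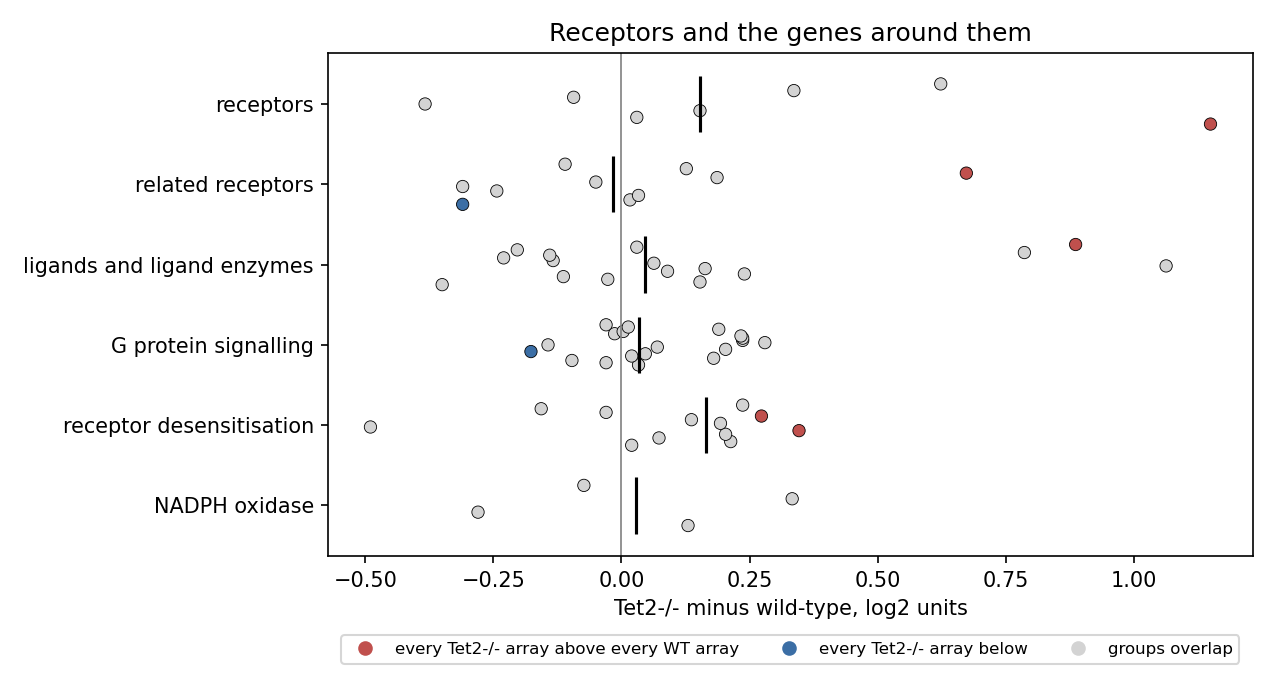
Difference of the group means (Tet2-/- minus wild-type, log2 units) for every measured receptor, related receptor, ligand or enzyme gene, signalling gene, desensitisation gene and oxidase subunit, 1 point a gene, with the list median as a bar. Red and blue points are genes whose groups did not overlap, and the medians lie between -0.02 and 0.165.

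Genes next to the receptors in the RefSeq order of GRCm38.p6 were measured for C3ar1, C5ar1, C5ar2, Ptafr and Ltb4r1. Necap1, next to C3ar1, differed by -0.09, Ccdc9, next to C5ar1, by -0.03, and Dhx34, next to C5ar2, by 0.11. Eya3, next to Ptafr, differed by -0.03, and Adcy4, next to Ltb4r1, by 0.057. The groups overlapped for all 5 and none was called (limma adjusted p = 0.998 for each). Fpr2 adjoins Fpr1 on chromosome 17, and the neighbours of Fpr2 and Cmklr1 were not analysed here.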

How the data were processed

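Whole-transcript Affymetrix arrays measured total RNA of 3 Tet2-/- and 3 wild-type samples. The authors deposited log2 values of 25206 probe sets. Per the submitters' processing notes these came from RMA, run in affy 1.36.1. The log2 scale was read from the values and that method, and the sources used here do not state whether the 6 arrays were normalized jointly. The platform's annotation named 23185 probe sets, and 2021 stayed unnamed and were not used as genes.

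Groups followed the sample titles, which number replicates 4, 5 and 6 once in each genotype. limma 3.58.1 in R 4.3.3 (lmFit, eBayes, two-sided) was fitted to all probe sets without a covariate, with Benjamini-Hochberg adjustment at 0.05, and was tested on simulated data. The test had been planned for 7 receptors and was read for 6, since Fpr1 had no named probe set. Replicate numbers were checked for pairing: deviations from the group mean correlated at 0.150, -0.215 and 0.112 for numbers 4, 5 and 6, so they were not taken as pairs.

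The members, lists and tests were chosen with earlier results of these data known. The text names the receptors, list members with separated groups and an unadjusted p under 0.05 (up to 5 a list), measured neighbours, and the 5 probe sets most and 3 least like Fpr2. Other list members were named after their values were seen. No background level per probe set was available, and the 3 arrays per group limit the precision. The other settings were the genotype characteristic as grouping, robust variances with an intensity trend, weighted arrays, the replicate block, centring on the median, quantile normalization, only the brighter probe sets, a threshold of 0.1 and leaving out each array.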

Additional observations from a re-analysis of the deposited data

How the results depend on the processing

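No tested receptor passed the adjusted threshold under any alternative run, the threshold of 0.1 included. Of all probe sets 0 were called, against 2 with array weights and 0 to 19 when single arrays were left out (19 without Tet2-/- replicate 6, 1 without wild-type replicate 4). At an unadjusted p under 0.05 the count of tested receptors went from 0 to 1 with array weights (Cmklr1, difference 0.934), and was 0 to 1 with single arrays left out (Cmklr1 without Tet2-/- replicate 6, Ltb4r1 without Tet2-/- replicate 4). The share of all probe sets at this unadjusted threshold was counted for the main fit only (3.61%). Nothing is therefore read from these receptor counts. The replicate block left the counts at 0 and the differences as they were, 1.15 for Fpr2.

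Grouping by the genotype characteristic turned the sign for Fpr2 (-0.67), C5ar1 (-0.013), C5ar2 (0.31), Ptafr (0.033), Ltb4r1 (-0.0033) and Cmklr1 (-0.0033), so these 6 directions rest on the titles. C3ar1 kept its sign, at 0.057. Array weights put Ptafr at 0.053. With single arrays left out, the difference ranged from -0.10 to 0.257 for C3ar1, -0.087 to 0.453 for C5ar1, -0.625 to 0.065 for C5ar2 and -0.28 to 0.087 for Ptafr, while Fpr2 (0.893 to 1.39), Ltb4r1 (0.195 to 0.46) and Cmklr1 (0.20 to 1.11) kept their sign. Median-centred arrays and a further quantile normalization turned no sign. Fpr2 lies outside the brighter probe sets, so that setting gave it no value. The cause of these changes was not tested.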

Other observations

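Over the 6 arrays, C3ar1 ran closely with the mean of the general macrophage markers (Pearson's r = 0.981) and of the G protein signalling genes (0.990). Cmklr1 ran most with the ligand and ligand enzyme genes (0.945) and the resident macrophage genes (0.941), whereas Fpr2 stood at 0.830 with the resident and 0.813 with the monocyte genes. C5ar2 ran against the neutrophil genes (-0.887), and Ltb4r1 with the receptor desensitisation genes (0.955) and the monocyte genes (0.837) and against the eosinophil and mast cell genes (-0.960). Ltb4r1 was dim, and the eosinophil and mast cell mean moved only between -0.069 and 0.065 around its 6-array mean. Within that list Siglecf ranged over 2.0 log2 units and Cpa3, the next widest, over 0.97. Siglecf therefore weighs most in the list mean, and the r is not a trait of the list as a whole. The desensitisation mean moved between -0.068 and 0.149. The points share their arrays, and Tet2-/- replicate 6 lies at one end of many of these lists, so these correlations are descriptions. Fpr2 was chosen on its higher level in Tet2-/-, so its r with lists that are higher there includes that choice.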
